A study of Homo sapiens with 8 samples.

Results

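The cholesterol and fatty acid synthesis genes described here are 35 named genes, of which 34 were measured among 18231 genes in all. For each, a probe set annotated to that gene alone was used, and where several existed the brightest on average over all 8 arrays was taken. FDFT1 had no such probe set and was not analysed here. The measured genes fall into a sterol synthesis branch of 17 genes (7 in the mevalonate arm and 10 in the sterol arm), 8 fatty acid genes, 6 genes of SREBP control and sterol transport, and 3 LXR targets.

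The study measured RNA of JVM13, an established human B-cell line from a prolymphocytic leukaemia, on an Affymetrix human expression array. Cells carried a doxycycline-inducible construct with the T286A form of cyclin D1 (3 arrays), with wild-type cyclin D1 (3 arrays) or with no insert (empty vector, 2 arrays). All 3 groups, the empty vector cells included, received doxycycline at 0.1 µg/mL, so none shows cells without the drug. Cyclin D1 binds and activates the kinases CDK4 and CDK6, and the T286A form lacks a phosphorylation site that marks the protein for export from the nucleus and breakdown. The labels give neither the number of independently made cell populations per construct nor whether replicates were separate cultures, so p-values reflect only how far these arrays of a group vary, and that variation may be technical. All values are log2 levels of one probe set, or log2 differences with their standard error (SE). A gene was called changed at an adjusted p under 0.05 over all genes, in a limma fit to all 8 arrays. Whether the arrays of groups overlapped is given as description only, without its share over all genes.

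Cells make cholesterol from acetyl-CoA through mevalonate, isoprenoid units, squalene and lanosterol, and make fatty acids from the same acetyl-CoA through malonyl-CoA. Both routes are switched on by the SREBP transcription factors, which SCAP carries to the Golgi for cleavage when sterols are low and which the INSIG proteins hold back when sterols are high. When sterols accumulate, the nuclear receptor LXR turns on genes that export cholesterol, such as ABCA1 and ABCG1, and genes that limit its uptake, such as MYLIP. Proliferating B cells draw on both routes for membrane growth.

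CCND1, which encodes cyclin D1, was at 11.25, 10.86 and 10.95 in the T286A arrays, 10.98, 11.13 and 11.07 in the wild-type arrays, and 5.25 and 4.98 in the empty vector arrays. CCND1 RNA was thus far higher with both constructs than with empty vector, and T286A and wild-type arrays overlapped. Of 7 B-cell markers 6 were measured, with levels from 7.59 to 13.43 in all arrays, and the 5 T-cell and 5 myeloid markers lay between 3.77 and 5.97. CD22, a B-cell surface receptor, was lower with wild-type cyclin D1 than with empty vector, at -0.40 (adjusted p = 0.0498), and its part in the results was not tested. Wild-type replicate 2 stood apart from its group, with a correlation of 0.994 to 0.995 with the other arrays of that group, against 0.997 between those. Its median over probe sets was 5.47, the lowest of all arrays, against 5.57 to 5.62 in the others, so results are also given without it or with arrays centred on their medians.

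The sterol synthesis branch averaged 9.88 ± 0.02 over its 17 genes with T286A (SD, n = 3), 9.72 ± 0.03 with wild-type cyclin D1 (SD, n = 3) and 9.89 ± 0.01 with empty vector (SD, n = 2). Its mean was 9.89, 9.86 and 9.90 in the T286A arrays, 9.72, 9.69 and 9.75 in the wild-type arrays, and 9.89 and 9.90 in the empty vector arrays, so every wild-type array lay below every other array. The fatty acid branch averaged 9.25 ± 0.02 with T286A (SD, n = 3), 9.08 ± 0.04 with wild-type cyclin D1 (SD, n = 3) and 9.17 ± 0.0039 with empty vector (SD, n = 2). Its mean was 9.27, 9.23 and 9.26 in the T286A arrays, 9.05, 9.05 and 9.13 in the wild-type arrays, and 9.18 and 9.17 in the empty vector arrays, so the wild-type arrays were again the lowest and the T286A arrays lay above empty vector. The median differences of T286A minus wild type were 0.16 in the sterol branch and 0.15 in the fatty acid branch, against 0.00 over all genes. Without wild-type replicate 2, the mean T286A minus wild type difference was 0.147 in the sterol branch and 0.159 in the fatty acid branch, close to the 0.162 and 0.174 with it. Centring each array on its median reduced these means to 0.0967 and 0.109 and the wild-type minus empty vector mean of the sterol branch to -0.107, from -0.174. The wild-type minus empty vector mean of the fatty acid branch became -0.0286, from -0.0957, with median centring, and its T286A minus empty vector mean became 0.0171, from 0.0781, with arrays centred on housekeeping genes. The array medians were 5.58, 5.60 and 5.61 with T286A, 5.59, 5.47 and 5.57 with wild type, and 5.62 and 5.59 with empty vector. In bulk RNA, a change in all cells cannot be told apart from a larger change in some of them.

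**Figure D1:**
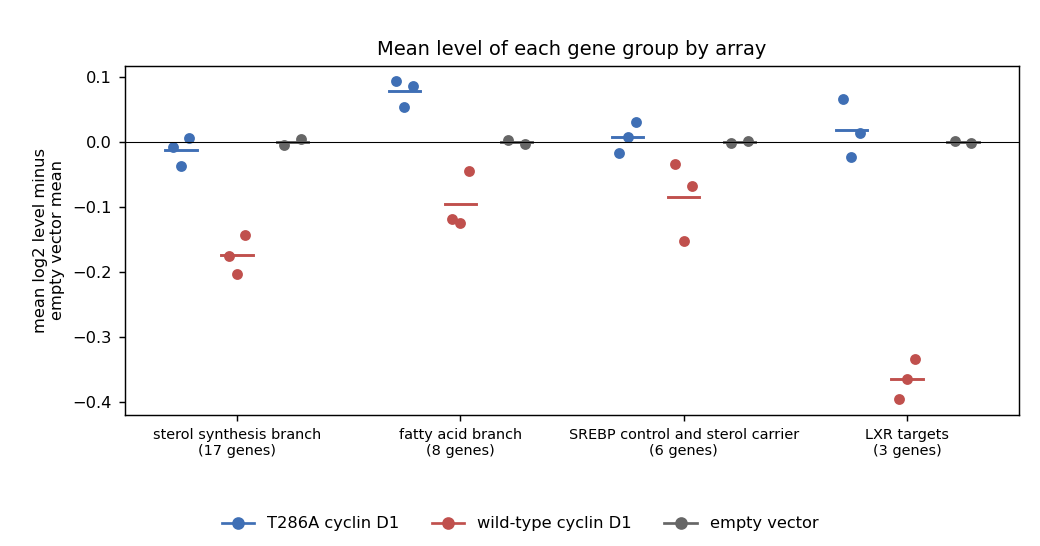
Mean log2 level of the measured genes of each group in each array, minus the empty vector mean of that group. Points are arrays, horizontal bars are group means, and colours mark T286A cyclin D1 (3 arrays), wild-type cyclin D1 (3 arrays) and empty vector (2 arrays). In the sterol synthesis branch the wild-type mean lies 0.174 below empty vector and the T286A mean 0.012 below it, and in the fatty acid branch wild type lies 0.096 below and T286A 0.078 above.

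Few of these shifts passed the test gene by gene. In T286A against wild-type cyclin D1, 2 of the 34 members were called, ABCG1 and ACAT2, both higher with T286A, against 0.987% of all genes called. In wild-type cyclin D1 against empty vector, ABCG1 alone was called, and it was lower (1 of 34 members, against 1.74% of all genes). In T286A against empty vector 0 members were called (0.532% of all genes). With both constructs averaged against empty vector, ABCG1 was the single call, lower, against 1.4% of all genes.

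At an unadjusted p under 0.05, 15 of 34 members were higher in T286A than in wild type (7.16% of all genes) and 0 were lower (6.46% of all genes). These 15 were 8 sterol synthesis genes, 4 fatty acid genes, SREBF1, ABCG1 and MYLIP. Of the 30 other probe sets for these members, 30 differed in the same direction. Against empty vector, wild type had 8 members lower (7.42% of all genes), 7 of them in the sterol synthesis branch and 0 in the fatty acid branch, and 1 higher (6.08% of all genes), ABCA1. T286A against empty vector had 4 members higher (5.95% of all genes), EBP, SREBF1, FASN and FADS1, and 1 lower (6.15% of all genes), TM7SF2. For the members listed against empty vector, 19 of 21 other probe sets had the same sign with wild type, and 7 of 9 with T286A. Probe sets of a gene were read on the same arrays, so they are not separate replicates. The comparisons share arrays, so these counts of members do not stand independently of each other. Of the 34 members, 32 lay at or above the median level of a gene. In a fit of only such genes, 1889 of 9116 had an unadjusted p under 0.05 in T286A against wild type, in either direction. Over all genes it was 2484 of 18231. The shares over all genes, here and below, are thus lower than among genes as bright as most members.

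By sign alone, 30 of 34 members were higher in T286A than in wild type (50% of all genes), 22 of 34 were higher in T286A than in empty vector (49.1%), and 6 of 34 were higher in wild type than in empty vector (50.5%). With arrays centred on a housekeeping list these counts were 30, 11 and 1, and with arrays centred on their medians 27, 23 and 9. The majority in T286A against wild type and the minority in wild type against empty vector thus appeared under both scalings, while the majority in T286A against empty vector was lost with housekeeping centring. That majority was also lost without T286A replicate 3 (15 of 34) and without T286A replicate 1 (17 of 34).

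**Figure D2:**
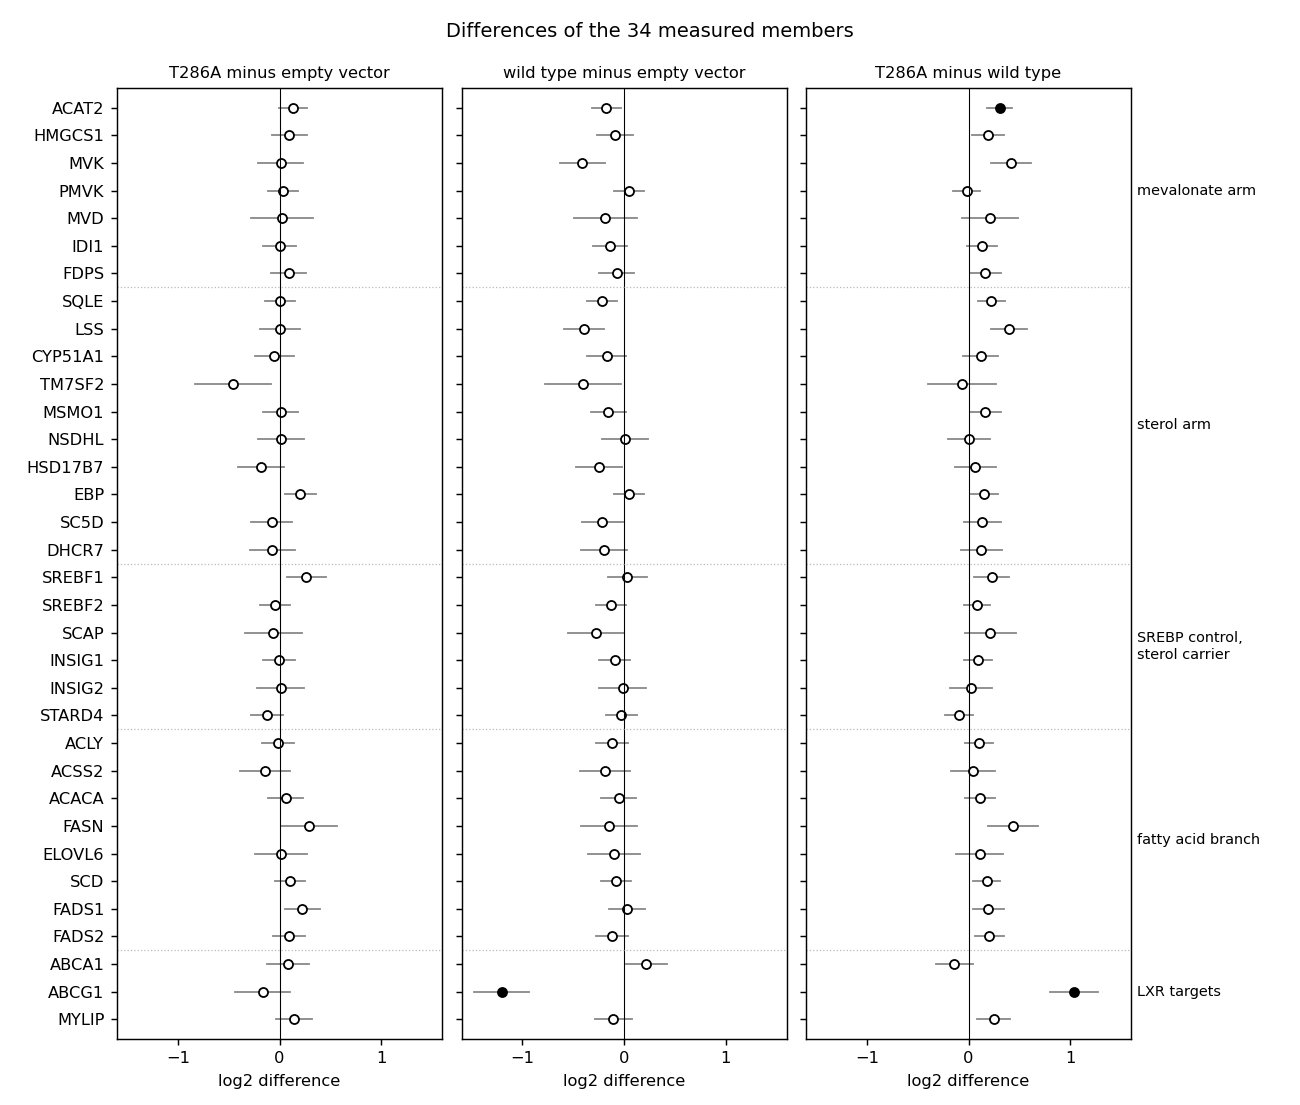
Log2 difference of each of the 34 measured members in T286A minus empty vector, wild type minus empty vector and T286A minus wild type. Points are fitted differences, bars are 95% intervals and filled points have an adjusted p under 0.05 over all genes. ABCG1 is filled at -1.21 in wild type minus empty vector and at 1.04 in T286A minus wild type, ACAT2 is filled at 0.31 in the last panel, and no point is filled in T286A minus empty vector.

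SREBP proteins bind sterol regulatory elements close to CCAAT boxes, which NF-Y binds, and GC boxes, which SP1 binds, so promoters of the members were searched for these letters. RefSeq promoter windows (GRCh38.p14, from 250 bases before to 50 after the annotated start) were matched by symbol for 30 of the 35 genes. ACAT2, FDFT1, SQLE, FASN and ABCG1 had no entry. On both strands, CCAAT was found in 20 of 30 windows (66.7%), against 36.1% of the 14491 windows of genes on the array. The sterol synthesis branch held it in 12 of 15 windows (80%) and the fatty acid branch in 4 of 7. The GC box GGGCGG was found in 27 of 30 windows (90%, against 58.6%), and the E-box CACGTG in 5 of 30 (16.7%, against 8.43%). The E2F motif TTTCCCGC, read by the factors that CDK4 and CDK6 activity releases, was found in MVK and INSIG2 (6.67%, against 2.15%). The sterol regulatory element TCACNCCAC was found in SREBF2 alone (3.33%, against 1.22%). Only this exact pattern was searched, and only in these windows, so a missing match does not show that the element is absent. These matches are descriptions of the letters in these windows, and no binding was measured here.

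The 250 bases before the start are shown for 4 genes, 5′ to 3′ on the strand of the gene. Capitals mark CCAAT, its reverse complement ATTGG, and the one sterol regulatory element match. SREBF2 (chr22:41832855-41833104, plus strand) is shown for that match, whose middle base lies at position -129 from the gene's start, with a CCAAT match centred at -104. MVK (chr12:109573544-109573793, plus strand) and LSS (chr21:46228775-46229024, minus strand) had the largest differences between T286A and wild type in the mevalonate and the sterol arm. SCD (chr10:100346983-100347232, plus strand) had the largest such difference among fatty acid genes with a CCAAT match. MVK held 5 CCAAT matches, SCD 2 and LSS 1.
SREBF2: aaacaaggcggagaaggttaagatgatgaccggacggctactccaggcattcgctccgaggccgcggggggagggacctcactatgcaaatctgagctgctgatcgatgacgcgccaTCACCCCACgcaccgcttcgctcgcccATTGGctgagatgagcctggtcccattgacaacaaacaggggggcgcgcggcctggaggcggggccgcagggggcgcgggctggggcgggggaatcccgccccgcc
MVK: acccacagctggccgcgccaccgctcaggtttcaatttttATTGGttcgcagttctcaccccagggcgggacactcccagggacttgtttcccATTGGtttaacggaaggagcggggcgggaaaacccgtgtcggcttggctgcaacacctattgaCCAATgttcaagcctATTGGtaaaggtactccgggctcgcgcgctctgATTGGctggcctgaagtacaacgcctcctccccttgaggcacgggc
LSS: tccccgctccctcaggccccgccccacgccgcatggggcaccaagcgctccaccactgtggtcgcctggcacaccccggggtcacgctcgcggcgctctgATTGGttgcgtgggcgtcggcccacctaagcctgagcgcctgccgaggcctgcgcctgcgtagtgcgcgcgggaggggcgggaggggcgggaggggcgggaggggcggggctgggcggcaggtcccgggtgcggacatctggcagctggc
SCD: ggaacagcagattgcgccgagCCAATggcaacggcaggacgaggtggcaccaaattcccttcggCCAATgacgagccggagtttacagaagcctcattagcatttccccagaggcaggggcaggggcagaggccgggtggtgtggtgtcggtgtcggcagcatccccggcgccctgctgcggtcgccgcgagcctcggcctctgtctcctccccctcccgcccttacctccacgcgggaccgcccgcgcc

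**Figure D3:**
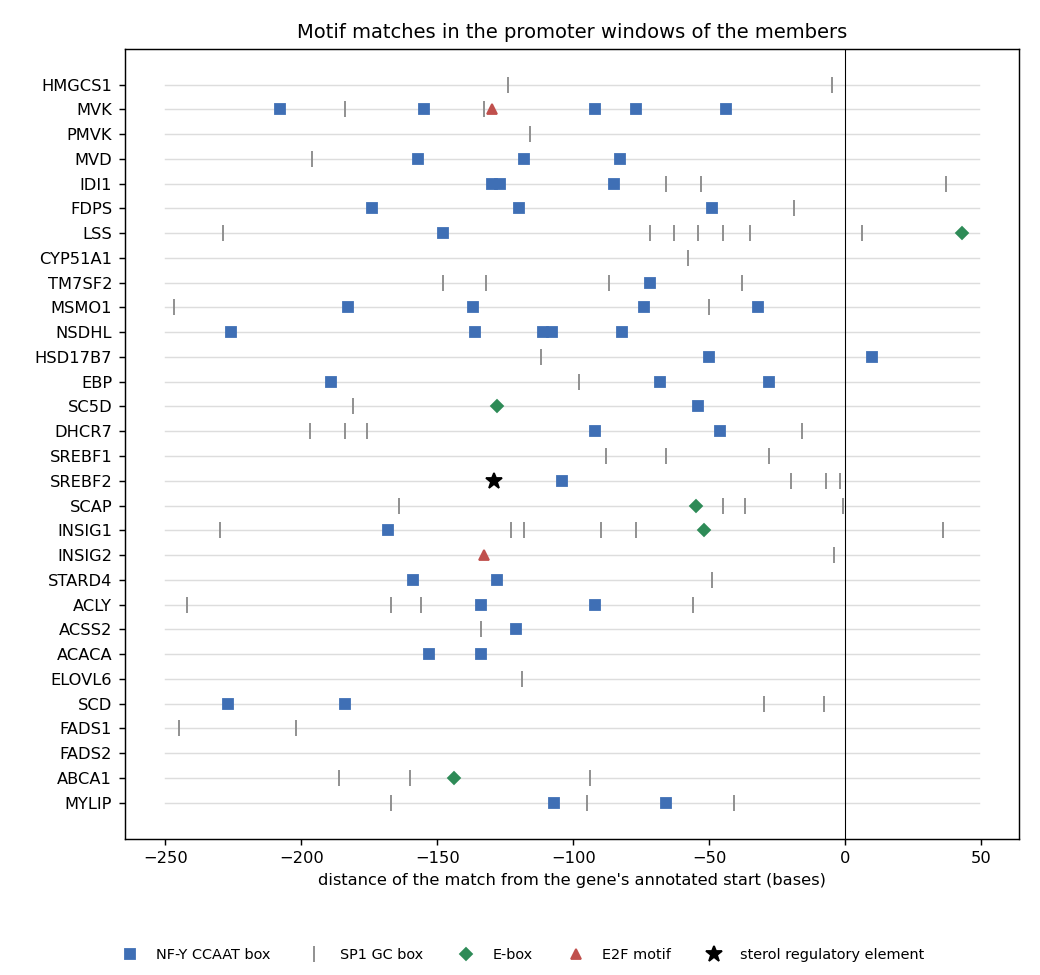
Position of motif matches in the promoter windows of the 30 members with an entry, in bases from the annotated start, which is the vertical line at 0. Each row is 1 gene and each symbol the middle of a match on either strand. CCAAT matches lie in 20 rows, and the sterol regulatory element, drawn as a star, lies in the SREBF2 row alone.

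In the mevalonate arm, which builds isoprenoid units from acetyl-CoA, 6 of 7 genes had higher levels with T286A than with wild-type cyclin D1 and 1 of these, ACAT2, passed the test. ACAT2 encodes the cytosolic thiolase that joins a pair of acetyl-CoA molecules in the opening step. It was at 11.45, 11.48 and 11.43 in the T286A arrays, 11.18, 11.11 and 11.15 in the wild-type arrays, and 11.31 and 11.33 in the empty vector arrays. The 3 groups did not overlap, with T286A highest and wild type lowest. The T286A minus wild type difference was 0.31 ± 0.06 (95% interval 0.18 to 0.43, adjusted p = 0.0491). Against empty vector neither construct was called, at 0.13 ± 0.06 for T286A (adjusted p = 0.446) and -0.17 ± 0.06 for wild type (adjusted p = 0.261). The ACAT2 call sat at the threshold. It was lost when any 1 array was left out (adjusted p of 0.105 to 0.170) and under other scalings, and its other 2 probe sets gave 0.28 and 0.23 (adjusted p = 0.133 and 0.220 in a fit of all probe sets).

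MVK encodes mevalonate kinase. It was at 8.15, 8.30 and 8.27 in the T286A arrays, 7.91, 7.67 and 7.87 in the wild-type arrays, and 8.15 and 8.31 in the empty vector arrays. Wild-type arrays lay below all others, and T286A and empty vector arrays overlapped. The T286A minus wild type difference was 0.42 ± 0.09 (adjusted p = 0.0804) and the wild type minus empty vector difference -0.41 ± 0.10 (adjusted p = 0.0934), neither of which passed the test. A second MVK probe set gave 0.08 for T286A minus wild type and 0.13 for wild type minus empty vector, the last opposite in sign. HMGCS1, the HMG-CoA synthase, was at 10.23, 10.17 and 10.06 in the T286A arrays, 10.04, 9.92 and 9.92 in the wild-type arrays, and 10.03 and 10.08 in the empty vector arrays. Its T286A arrays lay above the wild-type arrays, and both overlapped with empty vector. The T286A minus wild type difference was 0.19 ± 0.07 (adjusted p = 0.287).

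FDPS, which makes farnesyl diphosphate, was at 11.58, 11.53 and 11.47 in the T286A arrays, 11.32, 11.36 and 11.40 in the wild-type arrays, and 11.51 and 11.36 in the empty vector arrays. T286A and wild type did not overlap, with a difference of 0.16 ± 0.07 (adjusted p = 0.337). IDI1, the isopentenyl diphosphate isomerase, was at 10.81, 10.76 and 10.81 in the T286A arrays, 10.74, 10.58 and 10.65 in the wild-type arrays, and 10.82 and 10.76 in the empty vector arrays. Wild-type arrays were the lowest, and the T286A minus wild type difference was 0.14 ± 0.06 (adjusted p = 0.399). MVD, the mevalonate diphosphate decarboxylase, was at 8.75, 8.54 and 8.42 in the T286A arrays, 8.24, 8.24 and 8.61 in the wild-type arrays, and 8.52 and 8.57 in the empty vector arrays, and its 3 groups overlapped. PMVK, the phosphomevalonate kinase, lay between 10.05 and 10.17 over all 8 arrays and differed by -0.02 ± 0.06 between T286A and wild type (interval -0.15 to 0.12).

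In the sterol arm, from squalene to cholesterol, 9 of 10 genes had higher levels with T286A than with wild type and 8 of 10 had lower levels with wild type than with empty vector, and 0 passed the test in any comparison. At an unadjusted p under 0.05 there were 4 of 10 higher in T286A than in wild type (7.16% of all genes) and 5 of 10 lower in wild type than in empty vector (7.42% of all genes). In T286A against empty vector 1 was higher and 1 lower (5.95% and 6.15% of all genes), too few to set apart from the background. LSS, which closes the sterol rings to lanosterol, was at 8.74, 8.63 and 8.82 in the T286A arrays, 8.36, 8.29 and 8.36 in the wild-type arrays, and 8.63 and 8.82 in the empty vector arrays. Every wild-type array lay below every other array, and T286A and empty vector overlapped. The wild type minus empty vector difference was -0.39 ± 0.09 (adjusted p = 0.072), the T286A minus wild type difference 0.40 ± 0.08 (adjusted p = 0.0665) and the T286A minus empty vector difference 0.00 ± 0.09 (interval -0.19 to 0.20). The other 2 LSS probe sets had the same signs in both comparisons with wild type. SQLE, the squalene epoxidase that is an early control point of the arm, was at 11.12, 11.15 and 11.19 in the T286A arrays, 10.98, 10.90 and 10.91 in the wild-type arrays, and 11.17 and 11.13 in the empty vector arrays. It showed the same order, with wild type below both other groups, at -0.22 ± 0.06 against empty vector (adjusted p = 0.176) and T286A above wild type by 0.22 ± 0.06 (adjusted p = 0.149).

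TM7SF2, a sterol reductase acting after lanosterol, had another pattern. It was at 7.80, 8.08 and 8.19 in the T286A arrays, 7.79, 8.28 and 8.19 in the wild-type arrays, and 8.40 and 8.57 in the empty vector arrays. Both constructs lay below empty vector, at -0.46 ± 0.16 for T286A (adjusted p = 0.295) and -0.40 ± 0.16 for wild type (adjusted p = 0.331), and they overlapped with each other. All 4 other TM7SF2 probe sets were lower in wild type and 3 of 4 in T286A. HSD17B7, a ketoreductase of the same part of the route, was at 7.87, 7.80 and 7.92 in the T286A arrays, 7.66, 7.92 and 7.81 in the wild-type arrays, and 8.14 and 7.94 in the empty vector arrays. Its arrays with either construct lay below both empty vector arrays, at -0.18 ± 0.10 for T286A (adjusted p = 0.535) and -0.25 ± 0.10 for wild type (adjusted p = 0.323).

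EBP, the sterol isomerase, was at 10.40, 10.37 and 10.37 in the T286A arrays, 10.24, 10.27 and 10.15 in the wild-type arrays, and 10.18 and 10.17 in the empty vector arrays. Here the T286A arrays stood above all others, by 0.21 ± 0.07 over empty vector (adjusted p = 0.238) and 0.16 ± 0.06 over wild type (adjusted p = 0.301). MSMO1, the C4-methylsterol oxidase, was at 11.12, 11.02 and 11.13 in the T286A arrays, 10.97, 10.82 and 10.97 in the wild-type arrays, and 11.08 and 11.07 in the empty vector arrays. Its wild-type arrays were the lowest, with a T286A minus wild type difference of 0.17 ± 0.07 (adjusted p = 0.336). The remaining 4 genes, CYP51A1 (lanosterol demethylase), NSDHL, SC5D and DHCR7 (the reductase of the last step), differed between T286A and wild type by 0.01 to 0.14. In each of these 4 the T286A and wild-type arrays overlapped. SC5D was lower in wild type than in empty vector, at -0.21 ± 0.09 (adjusted p = 0.344), with CYP51A1 at -0.17 ± 0.08 and DHCR7 at -0.20 ± 0.10.

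**Figure D4:**
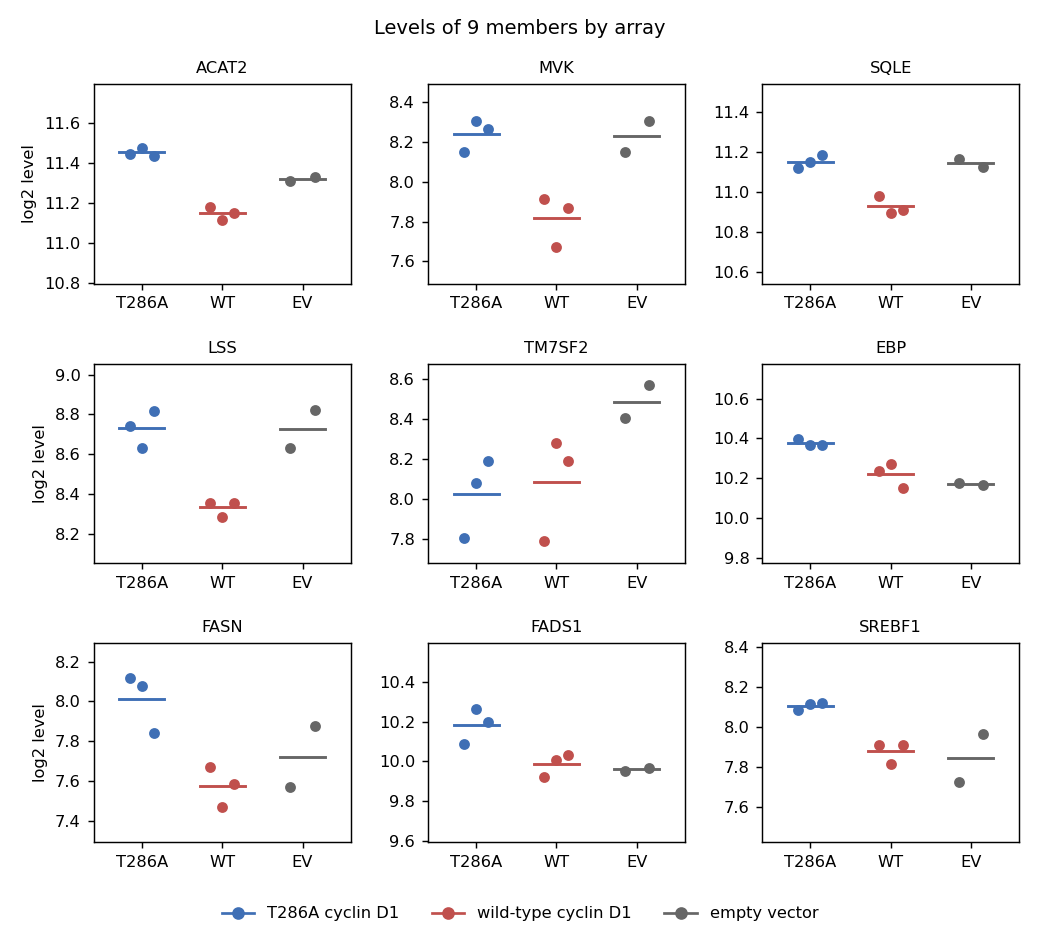
Log2 level of 9 members in each array, with T286A, wild-type (WT) and empty vector (EV) arrays side by side. Points are arrays, horizontal bars are group means and every panel spans 1 log2 unit. Wild type is the lowest group in ACAT2, MVK, SQLE and LSS, both constructs lie below empty vector in TM7SF2, and T286A lies above the other 2 groups in EBP, FADS1 and SREBF1.

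Among the regulators, SREBF1, which encodes the SREBP form that mainly drives fatty acid genes, was at 8.08, 8.12 and 8.12 in the T286A arrays, 7.91, 7.81 and 7.91 in the wild-type arrays, and 7.72 and 7.96 in the empty vector arrays. T286A arrays lay above all others, by 0.26 ± 0.08 over empty vector (adjusted p = 0.241) and 0.23 ± 0.08 over wild type (adjusted p = 0.243). Its other 2 probe sets were also higher in T286A than in wild type, but only 1 of them was higher in T286A than in empty vector. SREBF2, which encodes the form that mainly drives sterol genes, was at 8.24, 8.16 and 8.17 in the T286A arrays, 8.12, 8.10 and 8.09 in the wild-type arrays, and 8.21 and 8.26 in the empty vector arrays. T286A exceeded wild type by 0.08 ± 0.06 (adjusted p = 0.553), and wild-type arrays were the lowest in this probe set. The other SREBF2 probe sets gave 0.18 and 0.19 for that difference, and their wild-type arrays overlapped with both other groups. SCAP, the escort of SREBP, was at 8.09, 8.26 and 8.43 in the T286A arrays, 8.20, 7.87 and 8.07 in the wild-type arrays, and 8.31 and 8.33 in the empty vector arrays. Wild-type arrays lay below empty vector, at -0.28 ± 0.12 (adjusted p = 0.378) and overlapped with T286A.

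INSIG1, an SREBP target that retains SCAP in the endoplasmic reticulum, was at 11.52, 11.52 and 11.52 in the T286A arrays, 11.38, 11.39 and 11.50 in the wild-type arrays, and 11.56 and 11.48 in the empty vector arrays. In this brightest probe set the T286A minus wild type difference was 0.09 ± 0.06 (interval -0.05 to 0.23). These groups did not overlap there, but both overlapped with empty vector. The other INSIG1 probe sets gave -0.05, with overlapping arrays, and 0.30 for that difference (adjusted p = 0.908 and 0.207 in a limma fit of all probe sets). Size and sign thus varied among them. INSIG2, its relative, lay between 7.98 and 8.30 in its brightest probe set, with overlap of all groups. There it differed by 0.01, -0.01 and 0.02 for T286A over empty vector, wild type over empty vector and T286A over wild type. Its dimmer probe sets gave 0.44 and 0.23 for T286A over wild type (adjusted p = 0.134 and 0.422 in a limma fit of all probe sets). STARD4, a carrier of sterols between membranes, had the opposite sign in T286A against wild type in its brightest probe set. There it was at 8.69, 8.58 and 8.62 in the T286A arrays, 8.71, 8.75 and 8.71 in the wild-type arrays, and 8.80 and 8.71 in the empty vector arrays. T286A arrays were the lowest, at -0.12 ± 0.07 against empty vector (adjusted p = 0.545) and -0.09 ± 0.06 against wild type (adjusted p = 0.534). Its other probe sets gave 0.03, 0.09, -0.14 and -0.04 for T286A minus wild type, so the sign varied among them.

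In the fatty acid branch all 8 genes had higher levels with T286A than with wild-type cyclin D1, by 0.04 to 0.44, and 0 passed the test in any comparison. At an unadjusted p under 0.05, 4 of 8 were higher in T286A than in wild type (7.16% of all genes) and 2 of 8 were higher in T286A than in empty vector (5.95% of all genes). Between wild type and empty vector 0 of 8 passed, against 6.08% higher and 7.42% lower over all genes, a background at which few of 8 genes would pass. FASN, the fatty acid synthase, was at 8.12, 8.08 and 7.84 in the T286A arrays, 7.67, 7.47 and 7.59 in the wild-type arrays, and 7.57 and 7.88 in the empty vector arrays. T286A arrays lay above all wild-type arrays, while empty vector overlapped with both. The T286A minus wild type difference was 0.44 ± 0.11 (adjusted p = 0.134), the T286A minus empty vector difference 0.29 ± 0.12 (adjusted p = 0.39) and the wild type minus empty vector difference -0.15 ± 0.12 (adjusted p = 0.672). FADS1 and FADS2, neighbouring genes on chromosome 11, encode the desaturases of polyunsaturated fatty acids. FADS1 was at 10.09, 10.26 and 10.20 in the T286A arrays, 9.92, 10.01 and 10.03 in the wild-type arrays, and 9.95 and 9.96 in the empty vector arrays. Its T286A arrays lay above all others, by 0.22 ± 0.08 over empty vector (adjusted p = 0.276) and 0.20 ± 0.07 over wild type (adjusted p = 0.264). FADS2 was at 10.03, 10.06 and 10.02 in the T286A arrays, 9.82, 9.76 and 9.90 in the wild-type arrays, and 9.91 and 9.97 in the empty vector arrays. In this probe set the groups did not overlap, with T286A highest and wild type lowest, and T286A exceeded wild type by 0.21 ± 0.06 (adjusted p = 0.201). The other FADS2 probe sets gave 0.26, 0.08 and 0.20 for that difference. Wild-type and empty vector arrays overlapped in all of these, and T286A arrays overlapped with the other groups only in that with 0.08.

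SCD, the stearoyl-CoA desaturase, lay between 12.16 and 12.22 in T286A arrays, 11.98 and 12.04 in wild-type arrays, and 12.06 and 12.12 in empty vector arrays. The 3 groups did not overlap in this probe set, and T286A exceeded wild type by 0.18 ± 0.06 (adjusted p = 0.229). The other SCD probe sets gave 0.23, 0.17 and 0.12 for that difference, but 0.14, 0.18 and -0.10 for T286A minus empty vector. ACLY, which makes cytosolic acetyl-CoA from citrate, was at 11.90, 11.80 and 11.86 in the T286A arrays, 11.70, 11.81 and 11.74 in the wild-type arrays, and 11.90 and 11.85 in the empty vector arrays. Wild-type arrays lay below empty vector, at -0.12 ± 0.07 (adjusted p = 0.506) and overlapped with T286A. ACSS2, which makes acetyl-CoA from acetate, was dim, under the median level of a gene on the array (5.94). It was at 5.36, 5.25 and 5.28 in the T286A arrays, 5.17, 5.12 and 5.47 in the wild-type arrays, and 5.46 and 5.42 in the empty vector arrays, with T286A below empty vector, at -0.14 ± 0.11 (adjusted p = 0.679) and wild type overlapping with both. ACACA, the acetyl-CoA carboxylase of the committed step, and ELOVL6, an elongase, exceeded wild type in T286A by 0.11 ± 0.07 and 0.11 ± 0.10, with overlapping arrays.

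The largest change of all members was in ABCG1, a transporter that passes cholesterol to lipoprotein particles and is induced by LXR. Its brightest probe set was at 8.0, 7.77 and 7.90 in the T286A arrays, 6.86, 6.66 and 7.04 in the wild-type arrays, and 8.04 and 8.08 in the empty vector arrays. Every wild-type array lay below every other array, while the T286A arrays were just below the empty vector arrays. ABCG1 fell in wild type against empty vector by 1.21 ± 0.12 on the log2 scale (interval -1.47 to -0.94, adjusted p = 0.00345), a ratio of 0.433. It was higher in T286A than in wild type by 1.04 ± 0.10 (interval 0.80 to 1.28, adjusted p = 0.00445), a ratio of 2.06. T286A minus empty vector was -0.17 ± 0.12 (interval -0.43 to 0.10, adjusted p = 0.651), which did not pass the test. Both constructs averaged were lower than empty vector, at -0.69 ± 0.10 (adjusted p = 0.0237), a mean of a large and a small difference. In a fit of all probe sets, all 5 of ABCG1 were called in both comparisons with wild type, from -0.81 to -1.54 in wild type against empty vector and from 0.69 to 1.35 in T286A against wild type. The call against empty vector was lost without empty vector replicate 2 (-1.18, adjusted p = 0.0638), which leaves 1 control array. It was kept without wild-type replicate 2 (-1.11, adjusted p = 0.00666).

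**Figure D5:**
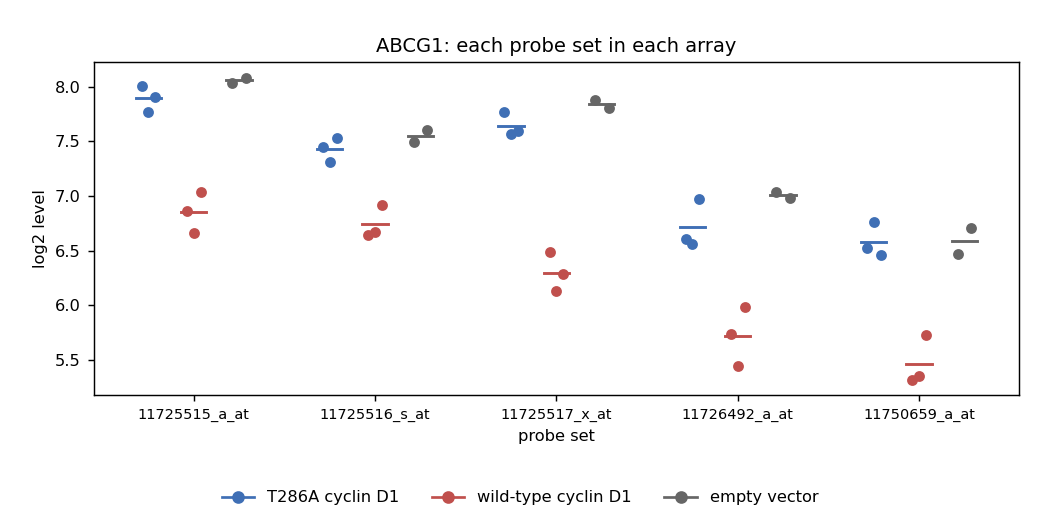
Log2 level of each of the 5 probe sets annotated to ABCG1 alone, by array. Points are arrays and horizontal bars are means of T286A (3 arrays), wild type (3 arrays) and empty vector (2 arrays). In every probe set the 3 wild-type arrays lie below all T286A and empty vector arrays.

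ABCA1 and MYLIP are the other LXR targets. ABCA1, a second cholesterol exporter, was dim, at 4.31, 4.17 and 4.15 in the T286A arrays, 4.22, 4.46 and 4.37 in the wild-type arrays, and 4.15 and 4.11 in the empty vector arrays. Both constructs had a higher mean than empty vector, wild type by 0.22 ± 0.09 (adjusted p = 0.327) and T286A by 0.08 ± 0.09 (adjusted p = 0.803). T286A minus wild type was -0.14 ± 0.08, opposite in sign to ABCG1. One of its 2 other probe sets had the opposite sign in wild type against empty vector. MYLIP, a ubiquitin ligase that removes lipoprotein receptors from the cell surface, was at 9.29, 9.38 and 9.38 in the T286A arrays, 9.13, 9.19 and 8.99 in the wild-type arrays, and 9.21 and 9.20 in the empty vector arrays. In this probe set the 3 groups did not overlap, with T286A highest and wild type lowest. T286A exceeded wild type by 0.25 ± 0.07 (adjusted p = 0.186). The other MYLIP probe sets gave 0.23 and 0.29 for that difference, and in the last wild type and empty vector overlapped.

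Genes around the pathway that are not members were read from 5 further lists, and 0 of their measured genes were called in the 3 pairwise comparisons by limma. At an unadjusted p under 0.05 there were 3 higher and 3 lower in T286A than in wild type, 2 higher and 2 lower in T286A than in empty vector, and 2 higher and 4 lower in wild type than in empty vector, out of 6, 11, 8, 19 and 4 measured genes. Over all genes these shares were 7.16% and 6.46%, 5.95% and 6.15%, and 6.08% and 7.42%, so the list counts are near the background. Of 6 measured genes of SREBP processing and sterol-regulated degradation, 5 were higher in T286A than in wild type, and the gene with the smallest p was ERLIN1, a partner of that degradation, at 0.32 ± 0.08 (adjusted p = 0.133). Of 11 genes of the isoprenoid side branches, 6 were higher in T286A than in wild type, with a median difference of 0.01. PDSS2, of ubiquinone synthesis, was at -0.17 ± 0.07 in that comparison (adjusted p = 0.313). Of 8 genes of sterol esterification and movement, 3 were higher in T286A than in wild type, with a median of -0.02, and NPC2, which moves cholesterol out of lysosomes, was at -0.29 ± 0.06 (adjusted p = 0.0729). Of 19 genes of fatty acid supply, elongation and use, 11 were higher in T286A than in wild type, with a median of 0.01. MID1IP1, an activator of acetyl-CoA carboxylase, was lower in wild type than in empty vector at -0.34 ± 0.08 (adjusted p = 0.0962). Of 4 LXR receptors and partners, 0 were higher in T286A than in wild type, with differences from -0.20 to -0.04. RXRB, a receptor with which LXR can pair on DNA, was at 0.21 ± 0.07 in wild type against empty vector (adjusted p = 0.269). The medians of these lists in T286A against wild type, apart from the first list (0.11), lay between -0.09 and 0.01, against 0.15 for the 34 members.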

How the data were processed

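The authors deposited log2 expression levels. The submitters' processing notes name RMA (robust multi-array averaging) and R 3.5.0. RMA removes background and gives all arrays one intensity distribution, so values are relative to other genes and dim probe sets understate changes. The table held no detection calls and scanner files were not used here. The number of arrays limits the precision.

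Of 48864 probe sets, 45220 were annotated to 1 gene, and the brightest was kept for each of 18231 genes. Groups came from sample titles. limma 3.58.1 (in R 4.3.3) was run on all 8 arrays with group means as coefficients (functions lmFit and eBayes, two-sided, 5 residual degrees of freedom), with Benjamini-Hochberg adjustment over all genes. The fit was tested on simulated data. Every member is named. Values in every array are given for called members and for the 3 largest changes of each gene group in each comparison. From each neighbouring list, called genes or else the gene with the smallest p were named. Members and lists were chosen with earlier results of these data known. Alternatives covered probe set choice, a level filter, scaling, array weights, the prior variance, a replicate block and leaving out each array. Promoters came from RefSeq (GRCh38.p14).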

Additional observations from a re-analysis of the deposited data

Results flagged for a closer look

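The difference between the constructs was itself tested for all 34 measured members, and 2 of them were called. ABCG1 was higher in T286A than in wild-type cyclin D1 by 1.04 ± 0.10 (log2, adjusted p = 0.00445), and it was higher in 3 of 3 T286A arrays than in every wild-type array. ACAT2 was higher in T286A than in wild-type cyclin D1 by 0.31 ± 0.06 (log2, adjusted p = 0.0491), likewise in 3 of 3 arrays. The ABCG1 call was kept when any 1 array was left out, whereas the ACAT2 call was lost when any 1 array was left out (adjusted p of 0.105 to 0.170) and with arrays centred on their medians (adjusted p = 0.115).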

How the results depend on the processing

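Over all genes, 317 of 18231 were called in wild-type cyclin D1 against empty vector. This became 629 of 9116 when only genes at or above the median level were tested (the level filter). With arrays centred on housekeeping genes it was 388, and with a trended and robust prior variance 747. The number of members called in that comparison was 1, against 4, 2 and 5 under these settings in turn. It ranged from 0 to 1 when each array was left out. In T286A against wild type 180 of all 18231 genes were called, against 381 of 9116 with the level filter and 602 with the trended prior. The number of members called there was 2, against 5 with the level filter and 8 with the trended prior. It was 1 with arrays centred on their medians or on housekeeping genes, with only the groups compared, with array weights and with the replicate block, and 1 in each fit that left out an array. With both constructs averaged it was 1, against 0 with the replicate block and 0 to 1 with an array left out, where it was 0 without wild-type replicate 1, T286A replicates 2 or 3, or either empty vector array. In T286A against empty vector it stayed at 0 in every setting. Over all genes, wild type against empty vector had 110 higher and 207 lower calls, against 195 and 146 with median centring and 70 and 318 with housekeeping centring. T286A against wild type had 109 and 71, against 91 and 109 with median centring, T286A against empty vector 62 and 35, against 26 and 53 with housekeeping centring, and both constructs 128 and 127, against 158 and 102 and 54 and 200.

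The mean sterol branch difference of wild type from empty vector was -0.174, against -0.144 with all probe sets averaged, -0.107 with median centring and -0.237 with housekeeping centring. For T286A against empty vector it was -0.0121, against 0.0126 with all probe sets averaged and -0.0731 with housekeeping centring, for T286A against wild type 0.162, against 0.0967 with median centring, and for both constructs -0.0929, against -0.0658, -0.0582 and -0.155 with all probe sets averaged, median centring and housekeeping centring. The fatty acid branch mean of wild type from empty vector was -0.0957, against -0.0286 with median and -0.160 with housekeeping centring. For T286A against empty vector it was 0.0781, against 0.109 with the level filter and 0.0171 with housekeeping centring, for T286A against wild type 0.174, against 0.109 with median centring, and for both constructs -0.00883, against 0.0259 and -0.0712 with median and housekeeping centring.

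Of the single-gene values with an unadjusted p under 0.05, 518 kept their side of the threshold, 18 passed it under an alternative and 20 lost their call, and 0 called values changed sign. Deviations of same-numbered arrays from their group means correlated by -0.09 to 0.119. The labels name no pairing, and so few arrays per group cannot show whether replicate numbers paired the samples. The replicate block left ABCG1 called in wild type against empty vector (-1.26) and not with both constructs averaged (-0.74, adjusted p = 0.0847). With the block, 16 of 34 members were higher in T286A than in empty vector, against 22 without it. The probe set alternatives for ABCG1 and ACAT2 were chosen after seeing the data. The cause of these movements was not tested.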
